A study of Homo sapiens with 18 samples.

Results

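The genes described are 10 genes of cellular iron handling: the iron regulators ACO1 and IREB2, the uptake genes TFRC, STEAP3, STEAP4 and SLC11A2, the storage genes FTH1, FTL and FTMT, and the exporter SLC40A1. They were chosen because ACO1 fell with ESR1 cDNA in these same arrays, and the question is whether the other iron genes moved with it. Of the 10, 8 had 1 probe set each that the platform annotation gives to that gene alone, out of 18404 genes measured in this way. IREB2 and FTH1 had no such probe set and are not analysed here. ACO1, TFRC, FTL, SLC11A2 and STEAP3 lay above a brightness cutoff of 5.208 on the log2 scale, the 30th percentile of gene means. SLC40A1, STEAP4 and FTMT lay under it.

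Expression was measured on 18 Affymetrix whole-transcript arrays, 3 in each of 6 groups, in MCF10A, an immortalised human breast epithelial line that is not tumorigenic. All cells had been infected with an shRNA lentivirus at an MOI of 5, put under puromycin (1.5 µg/ml) over 4 days, rested for at least 7 days, transiently transfected with a plasmid, and kept for 5 days in estrogen-containing M5 medium. Cells with the non-targeting hairpin shNT received ctrl cDNA (the control arrays), YAP/TAZ cDNA, ESR1 cDNA, or YAP/TAZ and ESR1 cDNA together. Cells with the LATS1 hairpin shLATS1B, and cells labelled shLATS1+2 for hairpins against LATS1 and LATS2, received ctrl cDNA. Transient transfection reaches only some of the cells, and the share reached is not given in the sources used here. Nothing in the labels ties the 3 replicates of a group to separate cultures, so they may be technical repeats. Each p-value of the main fit reflects the spread among such replicates, pooled over all 6 groups. The number of arrays limits the precision.

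Iron that a cell does not use or store drives harmful oxidation, so uptake, storage and export are adjusted together. The main switch is the pair of iron regulatory proteins, IRP1 (gene ACO1) and IRP2 (gene IREB2), which bind hairpins called iron-responsive elements in messenger RNA when iron is scarce. Binding in the 5′ untranslated region blocks translation of the ferritins and of ferroportin, and binding in the 3′ untranslated region stabilises the mRNA of the transferrin receptor. When iron is plentiful, IRP1 takes up an iron-sulfur cluster and becomes the cytosolic aconitase. An array reads mRNA and not translation, so control of ferritin or ferroportin at that step would not appear in these values.

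The sequences that bear on these genes came from RefSeq (assembly GRCh38.p14). Promoter windows were found for 9 of the 10 genes, FTH1 having none in the table. The first shown is the window of 250 bases before the start of ACO1, the regulator that was lower in every treated group, at chr9:32384393-32384642 on the plus strand. The next are those of FTL, at chr19:48965059-48965308 on the plus strand, and of SLC11A2, at chr12:51026385-51026634 on the minus strand (the first of 4 windows listed for it). These are shown because both genes rose in the same 3 groups. Capitals in the FTL window mark a single arm of the estrogen response element, and the other windows hold no match.
ACO1: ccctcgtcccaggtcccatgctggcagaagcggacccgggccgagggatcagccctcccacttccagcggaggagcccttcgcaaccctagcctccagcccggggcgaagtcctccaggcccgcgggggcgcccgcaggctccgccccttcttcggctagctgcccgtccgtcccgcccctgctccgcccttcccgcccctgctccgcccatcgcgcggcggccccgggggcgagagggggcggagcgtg
FTL: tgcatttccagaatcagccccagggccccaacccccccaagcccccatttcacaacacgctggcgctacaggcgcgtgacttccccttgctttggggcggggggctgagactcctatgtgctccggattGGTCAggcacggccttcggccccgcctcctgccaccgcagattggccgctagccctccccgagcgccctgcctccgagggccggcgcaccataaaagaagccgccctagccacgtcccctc
SLC11A2: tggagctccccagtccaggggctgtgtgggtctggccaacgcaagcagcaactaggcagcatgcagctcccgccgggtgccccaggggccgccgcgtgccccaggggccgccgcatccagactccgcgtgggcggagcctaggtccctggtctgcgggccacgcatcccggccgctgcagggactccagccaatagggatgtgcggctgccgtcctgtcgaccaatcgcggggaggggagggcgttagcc

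Windows of 250 bases were searched on both strands for the estrogen response element (GGTCA, then 3 bases of any kind, then TGACC), its arm GGTCA alone (which the full element contains), the TEAD motif GGAATG and the antioxidant response element core TGACNNNGC. TEAD proteins are the DNA-binding partners of YAP and TAZ. No window of the 9 genes held the full estrogen element or the TEAD motif, which 0.0399% and 11.9% of all 35116 windows held. The arm alone was in windows of IREB2, FTL, SLC11A2 and STEAP4 and in 32.6% of all windows, and the antioxidant element was in the FTMT window and in 10.9% of all. These letters are not evidence of binding.

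Part of the element through which IRP1 acts could be shown for FTL, whose gene spans chr19:48965309-48966879. The letters CAGTG of the iron-responsive element loop lay within the 50 bases after the start in FTL and in no other window of the 9 genes, against 6.48% of all windows. Only those 50 bases were searched, so an element further along a transcript would not be found. The site below covers bases 21 to 50 of the gene and stops where the window ends. It lies at chr19:48965329-48965358 on the plus strand, in the 5′ untranslated region, and capitals mark the loop.
FTL site: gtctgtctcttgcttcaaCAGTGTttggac

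The transfected and targeted genes were read as a check of the labels. LATS1 lay between 7.57 and 7.85 in the 6 arrays with LATS hairpins and at 8.64 or above in the other 12. LATS2 was 7.72 to 7.90 in the arrays labelled shLATS1+2 and 7.63 to 7.84 in the control arrays, so the double knockdown does not show in LATS2. YAP1 was 10.76 to 10.82 and WWTR1 (TAZ) 9.39 to 9.47 in the YAP/TAZ arrays. The control arrays read 10.82 to 10.88 and 9.42 to 9.73, and a probe set can miss the part a cDNA carries. With both cDNAs YAP1 was 10.78 to 10.94 and WWTR1 9.90 to 10.05. WWTR1 was also 9.71 to 10.03 in the arrays with LATS hairpins, which received no YAP/TAZ cDNA, so it did not follow the cDNA label. ESR1 was 5.37 to 5.65 in the control arrays, 5.60 to 5.83 with YAP/TAZ cDNA and 6.34 to 6.53 with ESR1 cDNA. It was 5.93 to 6.07 with both cDNAs and 6.25 to 6.47 in the arrays with LATS hairpins, which received no ESR1 cDNA. The first principal component, with 47.3% of the variance over all genes, set the control, YAP/TAZ and ESR1 arrays on 1 side and the both-cDNA and LATS hairpin arrays on the other. No batch is labelled, and for any comparison across that division a batch and the treatment cannot be told apart. The mammary epithelial markers measured were above the cutoff in 7 of 7 cases (9 listed), with a list mean of 10.82 to 11.15 on the log2 scale in all arrays, although single members moved in opposite directions, as given further on. Of the erythroid markers, 0 of 4 measured were above it.

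ACO1 (probe set 8154733; gene at chr9:32384643-32454769), which encodes IRP1, was highest in the control arrays and lower in every treated array. Its log2 intensities were 10.37, 10.28 and 10.31 in the control arrays. With ESR1 cDNA they were 9.10, 8.71 and 8.72, so the first ESR1 array stood above the other two. With YAP/TAZ cDNA they were 9.55, 9.57 and 9.53. Those 2 groups did not overlap with each other or with the control arrays. Both cDNAs together gave 9.21, 9.17 and 9.26, shLATS1B gave 9.57, 9.70 and 9.73, and shLATS1+2 gave 9.63, 9.51 and 9.29. All 15 treated arrays lay below the 3 control arrays. The RNA came from bulk cultures, in which fewer cells with a transcript and less of it per cell cannot be told apart.

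Because ACO1 was picked by its value against these control arrays, its differences from them are given as a description, with no test. The log2 difference from control was -1.48 ± 0.093 (SE of the fit) with ESR1 cDNA, a 2.78-fold lower level and the third largest fall of all genes. It was -1.10 with both cDNAs, -0.84 with shLATS1+2, -0.77 with YAP/TAZ cDNA and -0.65 with shLATS1B, each with the same SE. Without the first ESR1 array the difference with ESR1 cDNA was -1.61. In the order of group means, from control down through shLATS1B, YAP/TAZ, shLATS1+2 and both cDNAs to ESR1, only the neighbours YAP/TAZ and shLATS1+2 had overlapping arrays.

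**Figure D1:**
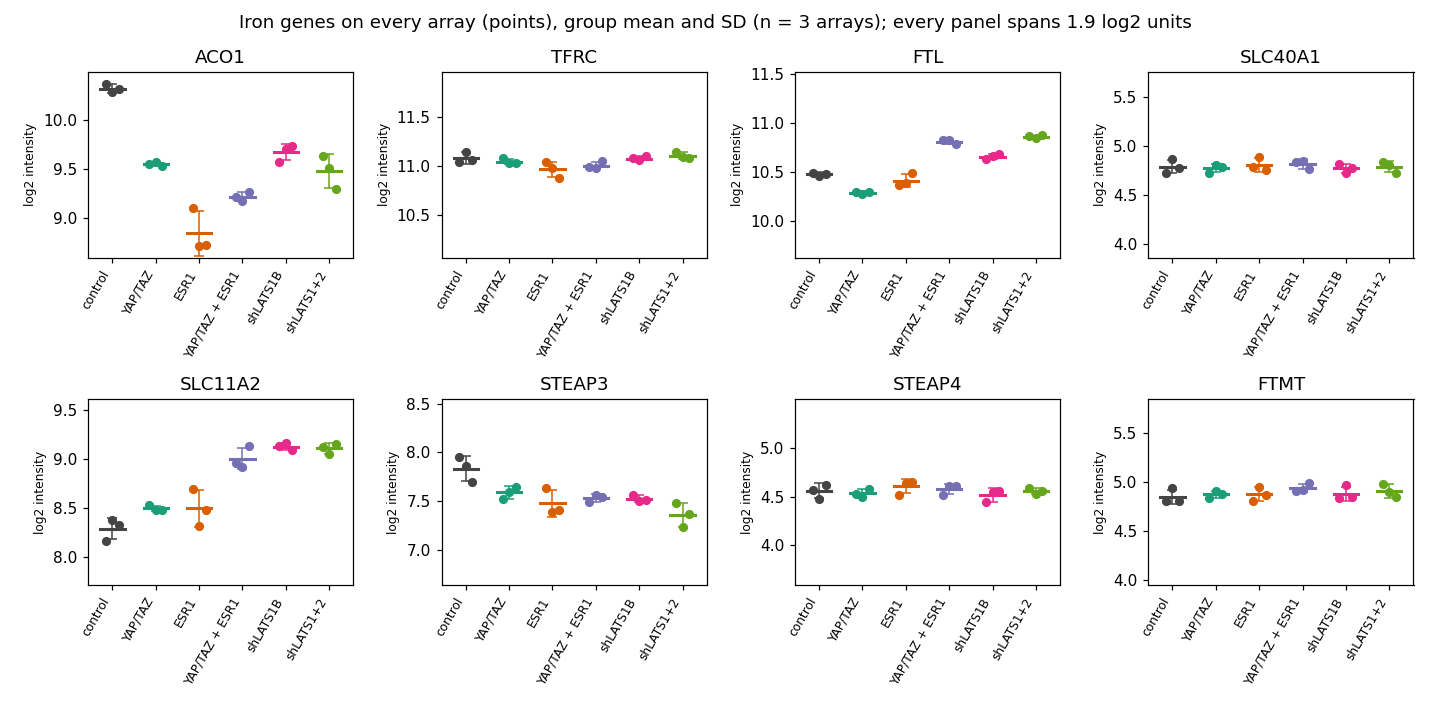
Log2 intensity of the 8 measured iron genes (vertical axes, each spanning 1.9 log2 units) on every array, by group (horizontal axis), with points for arrays and bars for the mean and SD of 3 arrays. ACO1 drops from 10.28 or more in the control arrays to 9.73 or less elsewhere, FTL and SLC11A2 rise in the last 3 groups, and TFRC stays between 10.88 and 11.15.

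Setting both cDNAs against YAP/TAZ cDNA alone compares means of arrays that played no part in the choice of ACO1. The SE and p of that comparison are not free of the choice. Their spread is pooled over all 18 arrays, the control and ESR1 arrays included. ACO1 fell in this comparison too, and by far less. The mean was 9.22 ± 0.044 (SD, n = 3) with both cDNAs and 9.55 ± 0.019 with YAP/TAZ cDNA alone, and the arrays did not overlap. The log2 change was -0.33 ± 0.093 (SE; limma adjusted p = 0.015), a 1.26-fold fall. Without the second array of the both-cDNA group the change was -0.31 and the call was lost (adjusted p = 0.06). This comparison crosses the division of the first principal component. Between the 2 hairpin groups, ACO1 differed by -0.19 (shLATS1+2 minus shLATS1B, 95% interval -0.39 to 0.01, limma adjusted p = 0.43), and the arrays overlapped.

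TFRC, the transferrin receptor that brings transferrin-bound iron into the cell and a classic IRP target, was bright and nearly level. Its probe set (8093053; gene at chr3:196049284-196082090) read 11.04, 11.15 and 11.06 in the control arrays and 11.04, 10.98 and 10.88 with ESR1 cDNA. Over all 18 arrays it spanned 0.27 log2 units, and the neighbouring groups in its order of means all overlapped. TFRC was called in none of the 7 comparisons. Against control, the 95% intervals of the log2 change were -0.10 to 0.09 with shLATS1B, -0.07 to 0.12 with shLATS1+2, -0.14 to 0.06 with YAP/TAZ cDNA and -0.17 to 0.02 with both cDNAs. The last became a call when each array was centred on its median gene (-0.15, adjusted p = 0.036). With ESR1 cDNA the difference from control was -0.12, given as a description. It was -0.17 with arrays centred on their medians and -0.15 without the first ESR1 array. Both settings passed the threshold for a call, and nothing is read from that, because this comparison chose the group.

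STEAP3, the endosomal reductase that turns transferrin-derived ferric iron into ferrous iron, was lower in both hairpin groups and with both cDNAs. Its probe set (8044793; gene at chr2:119223834-119265652) read 7.95, 7.86 and 7.70 in the control arrays. It read 7.57, 7.50 and 7.51 with shLATS1B and 7.48, 7.24 and 7.37 with shLATS1+2. With both cDNAs it read 7.49, 7.57 and 7.54. None of these 9 arrays reached the lowest control array. The falls were 0.31 (SE 0.076, limma adjusted p = 0.0058) with shLATS1B, 0.47 with shLATS1+2 (adjusted p = 0.00016) and 0.30 with both cDNAs (adjusted p = 0.0056), in log2 units.

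With YAP/TAZ cDNA alone STEAP3 read 7.52, 7.60 and 7.65, also all below the control arrays. The log2 difference of -0.24 ± 0.076 did not pass the test (limma adjusted p = 0.068). It passed after quantile normalization (adjusted p = 0.025), after centring on array medians (0.045) and without the third control array (0.027). With ESR1 cDNA it read 7.64, 7.39 and 7.41, a difference from control of -0.36 given as a description. Adding ESR1 cDNA to YAP/TAZ cDNA gave -0.06 (95% interval -0.22 to 0.10, limma adjusted p = 0.7). In order of means only control and YAP/TAZ were separate neighbours.

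SLC11A2, which encodes the divalent metal transporter DMT1 that carries ferrous iron into the cytosol, rose in 3 groups. Some of its transcripts end in an iron-responsive element and some do not, and 1 probe set (7963212; gene at chr12:50952263-51028886) does not separate them. It read 8.16, 8.38 and 8.32 in the control arrays. It read 9.13, 9.16 and 9.09 with shLATS1B and 9.12, 9.05 and 9.15 with shLATS1+2. With both cDNAs it read 8.96, 8.92 and 9.13. The lowest of these 9 arrays was well above the highest control array. The log2 rises over control were 0.84 ± 0.080 (SE; limma adjusted p = 6.2e-07), 0.82 (adjusted p = 8.3e-07) and 0.72 (adjusted p = 2.7e-06), or 1.79-fold, 1.77-fold and 1.64-fold.

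YAP/TAZ cDNA alone gave no called rise of SLC11A2 in the main fit. YAP/TAZ cDNA gave 8.53, 8.48 and 8.48, all above the control arrays, with a log2 difference of 0.21 (limma adjusted p = 0.16) that passed in 1 of the settings tried, quantile normalization (0.23, adjusted p = 0.044). ESR1 cDNA gave 8.69, 8.31 and 8.48, overlapping with the control arrays, with a difference of 0.21 given as a description. After quantile normalization that difference was 0.26 and passed the threshold for a call. Nothing is read from that, because this comparison chose the group. ESR1 cDNA on top of YAP/TAZ cDNA raised it by 0.51 (limma adjusted p = 0.00016), with no overlap of arrays. The hairpin groups differed by -0.02 (95% interval -0.19 to 0.15, limma adjusted p = 0.95).

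FTL, the ferritin light chain that forms part of the iron storage shell, moved in both directions. Its probe set (8030171) read 10.49, 10.46 and 10.48 in the control arrays and 10.29, 10.27 and 10.29 with YAP/TAZ cDNA. It read 10.82, 10.82 and 10.78 with both cDNAs. It read 10.63, 10.66 and 10.68 with shLATS1B and 10.86, 10.84 and 10.87 with shLATS1+2. Every one of these groups stood apart from the control arrays, YAP/TAZ cDNA below and the rest above. FTL has processed pseudogenes of near-identical sequence, and whether they add to this signal was not tested.

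FTL fell by 0.19 (log2, SE 0.039, limma adjusted p = 0.0048) with YAP/TAZ cDNA. It rose by 0.18 with shLATS1B (adjusted p = 0.0025), by 0.38 with shLATS1+2 (adjusted p = 1.3e-06) and by 0.33 with both cDNAs (adjusted p = 4.8e-06), 1.13-fold to 1.30-fold. With ESR1 cDNA it read 10.36, 10.38 and 10.49, overlapping with the control arrays, and the difference of -0.07 is a description. With arrays centred on their medians that difference was -0.12 and passed the threshold for a call, from which nothing is read either. ESR1 cDNA on top of YAP/TAZ cDNA raised it by 0.52 (limma adjusted p = 4.3e-08), or 1.44-fold. It was also higher with shLATS1+2 than with shLATS1B, by 0.20 (limma adjusted p = 0.032). That call was lost without any 1 of the 6 arrays (adjusted p = 0.084 to 0.17), with dim genes left out (0.071) and in 3 other settings (0.059 to 0.1). In the order of its means, only control and ESR1 overlapped.

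SLC40A1 (ferroportin, the iron exporter), STEAP4 (a metalloreductase of the plasma membrane and endosome) and FTMT (mitochondrial ferritin) lay near the bottom of the scale on all arrays. SLC40A1 (probe set 8057677) read 4.72, 4.86 and 4.77 in the control arrays and 4.72 to 4.89 over all 18. STEAP4 (8140840) read 4.57, 4.47 and 4.62 in the control arrays and 4.44 to 4.65 over all, and FTMT (8107576) 4.81, 4.94 and 4.81, and 4.81 to 4.99. These ranges of 0.17 to 0.21 log2 units held every group, and neighbouring groups overlapped throughout. None was called in any of the 7 comparisons, by limma's adjusted p or at an unadjusted p under 0.05, and at this brightness a change would be hard to detect.

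**Figure D2:**
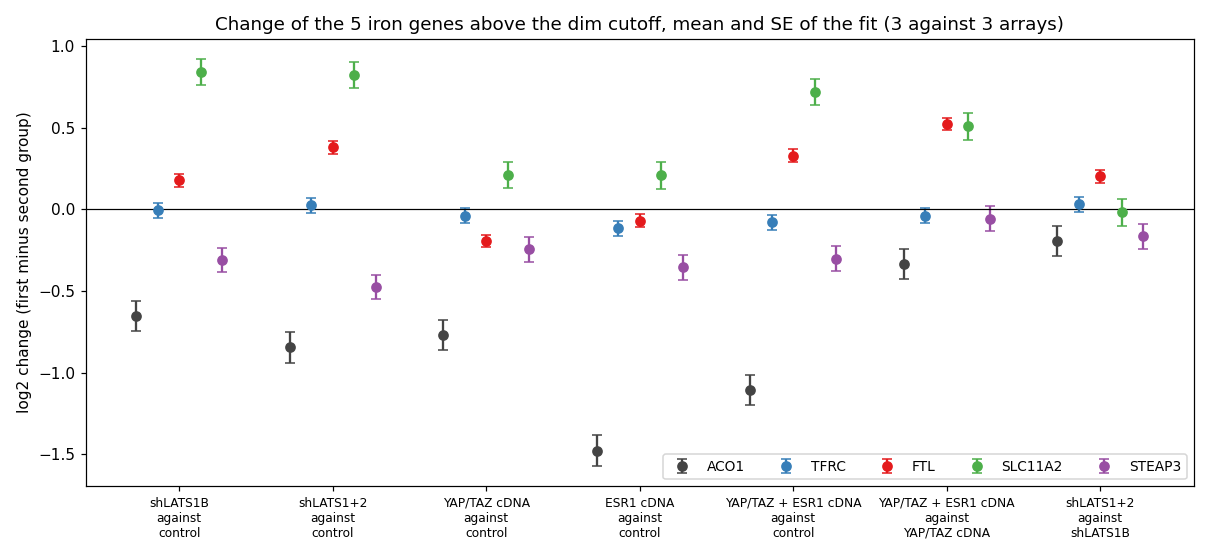
Log2 change (vertical axis; first group minus second) of the 5 iron genes above the brightness cutoff in the 7 comparisons (horizontal axis), with points for the fitted difference of 3 against 3 arrays and bars for its SE. SLC11A2 reaches 0.84, 0.82 and 0.72 in the hairpin and both-cDNA comparisons with control, ACO1 is below 0 in all 7, and TFRC stays near 0.

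Counted together, the iron genes did not follow ACO1 in 1 direction. STEAP3 alone shared with ACO1 that every treated array (7.65 or less) lay below every control array (7.70 or more). This is a description that includes the control and ESR1 arrays on which ACO1 was chosen. The share of all genes that do so is not given, so how unusual it is cannot be told. Of the 7 measured genes other than ACO1, shLATS1B raised 2 (FTL and SLC11A2) and lowered 1 (STEAP3), where 12.4% of all genes were called higher and 11.6% lower (limma, adjusted p under 0.05). The same counts were found with shLATS1+2, against 11.8% and 13% of all genes, and with both cDNAs, against 14.7% in each direction. YAP/TAZ cDNA raised 0 and lowered 1 (FTL), against 3.16% and 3.84%. In that comparison 3 of the 7 had an unadjusted p under 0.05. With ESR1 cDNA, the comparison that chose the group, 0 were called higher and 1 lower (STEAP3), where 7.04% and 11.9% of all genes were called, and nothing is read from that count. ESR1 cDNA on top of YAP/TAZ cDNA raised 2 of the 7 and lowered 0, against 12.3% and 10.5%, and lowered ACO1. There 2 of the 7 had an unadjusted p under 0.05. All shares over all genes are at adjusted p under 0.05, and no share at an unadjusted p is given.

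Between the hairpin groups 1 of 8 was called higher and 0 lower, against 0.141% and 0.179%, and that call is the FTL difference which was lost in most other settings. The median log2 change over the 8 genes ran from -0.03 to 0.04 in the 7 comparisons, and over all genes from -0.01 to 0.00. Centring arrays on their medians moved the balance of calls over all genes from 2286 higher and 2129 lower to 1724 and 3701 with shLATS1B. With shLATS1+2 it moved from 2174 and 2390 to 1672 and 3437, and with both cDNAs from 2700 and 2714 to 2056 and 4352. For both cDNAs against YAP/TAZ cDNA it moved from 2260 and 1926 to 1819 and 2577. With ESR1 cDNA it moved from 1295 and 2192 to 882 and 3159, and with YAP/TAZ cDNA from 582 and 707 to 467 and 853.

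FTL and SLC11A2 were the 2 iron genes of 8 that separated the arrays along the division of the first principal component. FTL read 10.27 to 10.49 in the 9 control, YAP/TAZ and ESR1 arrays and 10.63 to 10.87 in the 9 others. SLC11A2 read 8.16 to 8.69 and 8.92 to 9.16. No iron gene lay wholly lower in the second set. Over all genes 4.79% lay wholly higher there and 2.58% wholly lower, so 2 of 8 is a description of a split that many genes share. Across the 18 arrays FTL and SLC11A2 had r = 0.79, and ACO1 had r = 0.68 with STEAP3, 0.64 with TFRC, -0.09 with FTL and -0.23 with SLC11A2, all descriptions over arrays that share their groups.

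Of the genes listed as leukocyte and macrophage markers, CD14 and CD68 rose in the same 3 groups as FTL and SLC11A2, and carried the list mean with them. That mean, over 7 measured of 7 listed, was 6.13 to 6.17 in the control arrays, 6.19 to 6.22 with YAP/TAZ cDNA and 6.22 to 6.29 with ESR1 cDNA. It was 6.56 to 6.61 with both cDNAs, 6.52 to 6.53 with shLATS1B and 6.43 to 6.51 with shLATS1+2. Of the 7, CD14, CD68 and CSF1R were above the brightness cutoff. PTPRC, the pan-leukocyte marker, lay at 4.37 to 4.51 on all arrays, near the bottom of the scale, and CD163, LYZ and CD3E were under the cutoff too. CD14 went from 9.01 to 9.11 in the control arrays to 10.98 to 11.14 with both cDNAs, and CD68, a lysosomal protein, from 9.60 to 9.65 to 10.49 to 10.66. With YAP/TAZ cDNA CD14 also rose, by 0.62 (limma adjusted p = 0.00068), and CD68 fell by 0.37 (adjusted p = 0.00066). CSF1R had means of 6.13 in the control arrays, 6.12 and 6.07 in the hairpin groups, 6.32 with ESR1 cDNA and 6.30 with both cDNAs. Their part in the iron gene values was not tested.

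Markers of other lists changed in these groups as well. Of the 7 measured mammary epithelial markers, 3 rose and 3 fell with each LATS hairpin group, and 4 rose and 3 fell with both cDNAs. The shares of all genes called higher and lower were 12.4% and 11.6% with shLATS1B, 11.8% and 13% with shLATS1+2, and 14.7% each with both cDNAs. KRT14, a basal keratin, had means of 10.43 in the control arrays and 7.85 to 8.15 in those 3 groups, and KRT8, a luminal keratin, 11.07 and 11.72 to 12.17. The list mean of 5 fibroblast markers (5 measured, 3 above the cutoff) was 5.65 to 5.89 in the control arrays and 5.32 to 5.53 in the treated arrays. Within it DCN, a matrix proteoglycan, went from 6.02 to 7.21 in the control arrays to 4.45 to 5.26 elsewhere, lower in all 15 treated arrays as ACO1 was. Of 3 endothelial markers 1 was above the cutoff, PECAM1, with means of 5.73 in the control arrays and 6.01 to 6.58 in the both-cDNA and hairpin groups. The list mean was 5.23 to 5.27 in the control arrays and 5.33 to 5.57 in those 3 groups. The part of these genes in the iron gene values was not tested either.

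The wider iron system was read from 5 lists of other genes, 100 in all with 92 measured, picked for their known roles. Of the 92, 13 rose and 16 fell with shLATS1B, 17 rose and 16 fell with shLATS1+2, and 18 rose and 17 fell with both cDNAs. YAP/TAZ cDNA raised 7 and lowered 1. ESR1 cDNA on top of it raised 14 and lowered 15. In the ESR1 comparison with control 12 were called higher and 12 lower. Between the hairpin groups 0 were called in either direction by limma, and 14 had an unadjusted p under 0.05. At the adjusted threshold the shares of all genes called higher and lower were 12.4% and 11.6% with shLATS1B and 11.8% and 13% with shLATS1+2. They were 14.7% each way with both cDNAs, 3.16% and 3.84% with YAP/TAZ cDNA, and 12.3% and 10.5% for ESR1 cDNA on top of it. With ESR1 cDNA against control they were 7.04% and 11.9%, and between the hairpin groups 0.141% and 0.179%. No share at an unadjusted p is given, so the 14 cannot be read as many or few. The median log2 change of the 92 genes ran from -0.03 to 0.01 in the 7 comparisons.

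Among other uptake and release genes (21 measured), LCN2 changed most. It encodes lipocalin 2, a secreted protein that binds iron-carrying siderophores and is also an acute-phase gene. Its probe set read 6.02, 6.25 and 6.42 in the control arrays and 10.03, 10.03 and 10.06 with both cDNAs. It rose by 3.81 (log2, SE 0.084, limma adjusted p = 6e-15) with both cDNAs, by 1.22 with YAP/TAZ cDNA (adjusted p = 5.7e-08), by 1.82 with shLATS1B (adjusted p = 9.7e-11) and by 1.99 with shLATS1+2 (adjusted p = 3.5e-11). With ESR1 cDNA it read 8.20, 8.04 and 8.08, a difference of 1.88 given as a description. All 15 treated arrays were above the control arrays, the opposite of ACO1.

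LRP1, a receptor that takes up the heme-hemopexin complex among many ligands, rose by 1.32 with both cDNAs (limma adjusted p = 2.1e-08) and by 0.88 with shLATS1B (adjusted p = 3.3e-06). CYBRD1, a ferric reductase of the cell surface, rose by 0.99 with shLATS1+2 (limma adjusted p = 8.5e-10). The rise was not particular to that group: means were 8.88 in the control arrays, 9.74 with shLATS1B and 9.41 with both cDNAs. STEAP1, a relative of STEAP3, fell by 0.95 with shLATS1B (limma adjusted p = 0.00024) and by 0.66 with both cDNAs (adjusted p = 0.004). SLC39A14, a zinc and iron importer, fell by 0.25 and 0.26 with shLATS1B and shLATS1+2 (limma adjusted p = 0.0079 and 0.0058). SLC39A8, its relative, rose by 0.35 with YAP/TAZ cDNA (limma adjusted p = 0.00015). Over this list 4 rose and 3 fell with shLATS1B, 5 and 2 with shLATS1+2, 4 and 0 with YAP/TAZ cDNA, and 7 and 4 with both cDNAs. Among all genes 12.4% rose and 11.6% fell, 11.8% and 13%, 3.16% and 3.84%, and 14.7% and 14.7% in the same comparisons.

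Of 20 measured heme genes, 5 rose and 3 fell with shLATS1B, 6 and 4 with shLATS1+2, 3 and 0 with YAP/TAZ cDNA, and 3 and 4 with both cDNAs. The shares of all genes called higher and lower were 12.4% and 11.6%, 11.8% and 13%, 3.16% and 3.84%, and 14.7% and 14.7%. SLC46A1, a folate transporter that also carries heme, rose by 1.35, 1.16 and 1.19 with shLATS1B, shLATS1+2 and both cDNAs (limma adjusted p = 1.9e-10, 1.2e-09 and 6.2e-10). SLC48A1, which moves heme out of lysosomes, rose by 0.78, 0.81 and 0.84 (limma adjusted p = 4.8e-07, 3.1e-07 and 1.3e-07) and by 0.50 with YAP/TAZ cDNA (adjusted p = 0.00029). UROD, an enzyme of heme synthesis, fell by 0.53, 0.42 and 0.56 in the first 3 of these groups (limma adjusted p = 0.00019, 0.0016 and 8.7e-05). ABCB10, a mitochondrial transporter, fell by 0.34 with shLATS1B and 0.48 with both cDNAs (limma adjusted p = 0.00053 and 1.6e-05). Its mean was lower with shLATS1+2 too, 9.378 against 9.705 in the control arrays. FLVCR2, a heme and choline transporter, fell by 0.39 for both cDNAs against YAP/TAZ cDNA (limma adjusted p = 0.00027). HMOX1, the heme oxygenase that frees iron from heme, was called in none of the 7 comparisons; it is named after its values were seen.

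Of 22 measured genes of iron-sulfur cluster assembly, the cofactor that IRP1 binds, 1 rose and 3 fell with shLATS1B, 2 and 3 with shLATS1+2, 0 and 0 with YAP/TAZ cDNA (limma; 2 at an unadjusted p under 0.05), and 2 and 4 with both cDNAs. Shares over all genes are of calls at adjusted p under 0.05. They were 12.4% higher and 11.6% lower, 11.8% and 13%, 3.16% and 3.84%, and 14.7% each way. BOLA3, a mitochondrial assembly factor, fell by 0.97 with shLATS1B (limma adjusted p = 2.4e-05) and by 0.89 with shLATS1+2 (adjusted p = 6.1e-05). With ESR1 cDNA it was 0.49 above control, given as a description. CIAO2B, of the cytosolic targeting complex, rose by 0.36 and 0.38 in the hairpin groups (limma adjusted p = 7e-04 and 0.00038). ISCA1, a mitochondrial assembly protein, fell by 0.38 with shLATS1B (limma adjusted p = 0.0044) and by 0.30 with both cDNAs (adjusted p = 0.016).

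Of 26 measured genes of regulation, chaperoning and ferritin turnover, 2 rose and 6 fell with shLATS1B, 3 and 6 with shLATS1+2, 0 and 1 with YAP/TAZ cDNA, and 5 and 5 with both cDNAs, where the all-gene shares were 12.4% and 11.6%, 11.8% and 13%, 3.16% and 3.84%, and 14.7% and 14.7%. NFE2L2, the NRF2 factor that activates ferritin genes among its targets, rose by 0.39, 0.30 and 0.49 with shLATS1B, shLATS1+2 and both cDNAs (limma adjusted p = 0.00021, 0.0023 and 1.6e-05). NEDD4, a ubiquitin ligase, fell by 0.59, 0.54 and 0.43 (limma adjusted p = 8.1e-07, 1.9e-06 and 1.8e-05). FBXL5, the iron sensor that marks IRP2 for degradation, rose by 0.40 with shLATS1+2 (limma adjusted p = 0.0017). Its means were 10.50 in the control arrays, 10.72 with shLATS1B and 10.69 with both cDNAs. GLRX3, an iron-sulfur chaperone, fell by 0.39 with shLATS1B (limma adjusted p = 0.0074) and by 0.54 with both cDNAs (adjusted p = 0.00042).

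Other transcripts known to carry an iron-responsive element, of which 4 were measured, gave 2 genes with calls, CDC14A and EPAS1. ALAS2 and CDC42BPA were called in none of the 7 comparisons. With each hairpin group 1 of the 4 rose and 1 fell, and with both cDNAs 1 rose and 0 fell. Among all genes 12.4% rose and 11.6% fell with shLATS1B, 11.8% and 13% with shLATS1+2, and 14.7% each way with both cDNAs. CDC14A, a phosphatase, rose by 0.83 with shLATS1B, 0.80 with shLATS1+2 and 0.35 with both cDNAs (limma adjusted p = 1.1e-05, 1.5e-05 and 0.016). EPAS1 (HIF-2 alpha, a hypoxia factor) fell by 0.31 with shLATS1B and 0.57 with shLATS1+2 (limma adjusted p = 0.041 and 0.00071). In the YAP/TAZ comparison 0 of the 4 were called by limma, against 3.16% higher and 3.84% lower of all genes. In it 0 of the 4 had an unadjusted p under 0.05.

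**Figure D3:**
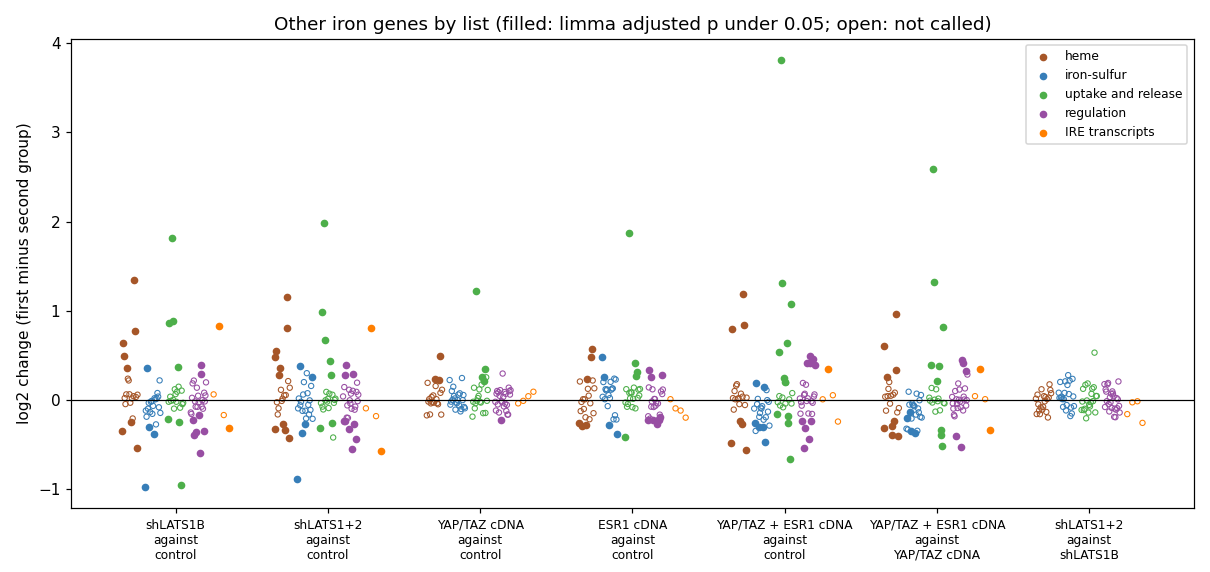
Log2 change (vertical axis; first group minus second) of the 92 other iron genes in the 7 comparisons (horizontal axis), coloured by list, with filled points for genes called by limma and open points for the rest. Calls lie on both sides of 0 in each list of 20 or more genes with both cDNAs, the highest point is LCN2 at 3.81, and no point is filled between the hairpin groups.

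The genes whose pattern over the 6 group means was most like that of ACO1, among 12882 genes above the brightness cutoff, were SNX25, GTF2E2, EIF4B, SPATS2 and IVNS1ABP. Their Pearson r with ACO1 over 6 group means ran from 0.991 for IVNS1ABP to 0.996 for SNX25, with no p because they were ranked on it. Over the 18 arrays r was 0.97 for IVNS1ABP and 0.75 for GTF2E2. They moved less than ACO1. IVNS1ABP went from 10.32 in the control arrays to 9.73 with ESR1 cDNA, and SNX25, a sorting nexin, from 7.96 to 7.51. EIF4B, a translation initiation factor, went from 11.68 to 11.25. None of the 5 is an iron gene of the lists used here.

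**Figure D4:**
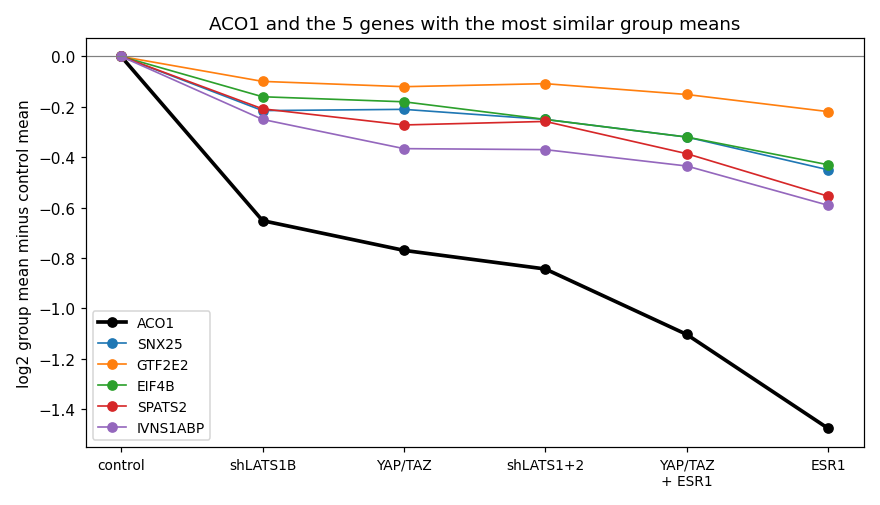
Group mean minus control mean on the log2 scale (vertical axis) for ACO1 and the 5 genes with the most similar group means, over the 6 groups ordered by ACO1 (horizontal axis); lines join means of 3 arrays. ACO1 falls to -1.48 with ESR1 cDNA, and the other 5 also have their highest mean in the control arrays and their lowest with ESR1 cDNA, over a smaller range.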

How the data were processed

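The authors' deposited values are log2 intensities, 1 column per array, for 32321 probe sets. The submitters' processing notes name affy for these log2 values, without a version. How background was corrected is not given in the sources used here, and neither is the normalization. The median log2 value per array was 5.494 to 5.619, and arrays within a group correlated at r = 0.993 to 0.999 over genes. Names came from the platform annotation, where 19158 probe sets had 1 gene symbol, 1388 several and 11775 none, and only the first kind was used. Symbols were updated through RefSeq (GRCh38.p14). The brightest probe set stood for each of 18404 genes.

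All 18 arrays entered 1 limma 3.58.1 fit (R 4.3.3) with a mean per group and no replicate block, with 12 residual degrees of freedom and 3.94 from moderation. The fit was tested on simulated data. Tests were two-sided and adjusted by Benjamini-Hochberg over all genes of a comparison, and a gene was called where that value was under 0.05. The 7 comparisons were the 5 treatments against control, both cDNAs against YAP/TAZ cDNA, and 1 hairpin group against the other. The 5 against control share its 3 arrays.

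The iron genes and lists were chosen with earlier results of these data known. The text names all 10 iron genes, the targeted genes, from each list genes among up to 2 called higher and 2 lower by largest change in a comparison, and the 5 genes most like ACO1. A list gene can therefore also differ in groups for which it is not named. Alternatives were quantile normalization, median centring, the mean of probe sets, leaving out dim genes, a replicate block, trend and robust moderation, the arrays of 2 groups alone, and leaving out each array.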

Additional observations from a re-analysis of the deposited data

Results flagged for a closer look

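YAP/TAZ cDNA went with opposite moves of 2 iron genes depending on whether ESR1 cDNA was also given. ACO1 differed by -0.77 (log2) from control with YAP/TAZ cDNA alone, and by 0.37 from ESR1 cDNA when YAP/TAZ cDNA was given with it, every array moving down in the first case and up in the second. FTL differed by -0.19 in the first case and 0.40 in the second, again in every array. The difference between the 2 cases was not tested, since the first case holds the control arrays and the second the ESR1 arrays on which ACO1 was chosen. The second case crosses the division of the first principal component, where a batch and the treatment cannot be told apart.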

How the results depend on the processing

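No called value changed sign under any setting tried. Leaving out the ESR1 comparison with control and ACO1 against control, the calls of single iron genes, counted once per comparison and setting, kept their side 94 times and lost it 4 times over the settings that keep every array, and 77 and 7 times when 1 array was left out. The counts of iron genes called moved by over 1.5 times in these cases. YAP/TAZ cDNA against control went from 2 to 4 under quantile normalization. ESR1 cDNA against control went from 2 to 4 with arrays centred on their medians, all 4 lower (882 higher and 3159 lower over all genes). It went to 1 with the arrays of the 2 groups alone, where all genes called went from 3487 to 1126. The hairpin groups went from 1 to 0 with dim genes left out, with the replicate block, with trend and robust moderation and with the 2 groups alone, and ran from 0 to 0 when any 1 array was left out. The replicate block changed no other call among the iron genes. The replicate numbers gave no clear pairing of the arrays, since no comparison had 3 same-number correlations over 0.1. They were 0.54, -0.07 and 0.41 for ESR1 cDNA against control, and -0.39, -0.29 and -0.18 for YAP/TAZ cDNA against control. With 3 arrays per group this check cannot exclude a pairing. When 1 array was left out, genes called ran from 848 to 1246 for YAP/TAZ cDNA (1289 with all arrays), from 2299 to 5461 for ESR1 cDNA (without its second and its first array) and from 33 to 54 between the hairpin groups (59 with all arrays). The cause was not tested. Dim probe sets limit SLC40A1, STEAP4 and FTMT.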
